A study of Caenorhabditis elegans with 9 samples.

Results

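The respiratory chain genes described here were the 43 protein-coding genes, of 46986 genes in the table, whose name begins with nuo, cox, atp or ucr followed by a number or that lie on the mitochondrial chromosome (MtDNA). RNA of whole Caenorhabditis elegans had been sequenced in 9 libraries, which fell into 3 groups of 3. FA animals were kept on a high fat condition together with farrerol, a plant flavonoid, HFD animals on the high fat condition alone, and OP animals were the controls. The control columns carry the name OP50, the Escherichia coli strain on which this nematode is commonly grown, and per the series title the high fat state was induced with citrate. All 3 groups were labelled as whole tissue. The sources used here give no strain, age, dose or number of animals per library. Nothing in the labels tells whether libraries of the same group were grown apart.

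The respiratory chain passes electrons from NADH and other donors to oxygen and pumps protons across the inner mitochondrial membrane. Complex I takes electrons from NADH, complex III passes them from ubiquinol to cytochrome c, complex IV hands them to oxygen, and complex V, the ATP synthase, lets the protons flow back and makes ATP. Most subunits are encoded in the nucleus and imported, while a few hydrophobic core subunits are encoded in the mitochondrial DNA, so that complexes I, III, IV and V each need products of both genomes. Complex II is wholly nuclear and has no gene among the 43.

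Of the 43 genes, 12 lay on MtDNA and 31 on nuclear chromosomes, with 9 each on chromosomes I and III, 4 each on IV and V, 3 on II and 2 on X. The MtDNA genes were 7 subunits of complex I, 1 of complex III, 3 of complex IV and 1 of complex V. The nuclear genes were 6 subunits of complex I, 5 of complex III, 7 of complex IV and 5 of complex V. The 8 further nuclear genes, cox-10, cox-11 and cox-14 to cox-19, take their names from assembly factors of complex IV and are not subunits. nduo-1 and ndfl-4 stand in the table with an identifier (WBGene00010959 and WBGene00010958) and were named from its description column. In all, 41 of the 43 genes, 12 on MtDNA and 29 nuclear, had at least 1 FPKM in at least 3 libraries and were tested. Levels are in FPKM, fragments per kilobase of gene in a scaled library. They can be compared between genes only as far as the RNAs were captured alike, which was not tested.

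Reads on genes ranged over 17514542 to 21419867 per library, and 14730 genes passed the same filter. The scaling differed most within FA: the library size behind the FPKM of FA replicate 2 was 0.885 of its read total and that of FA replicate 3 was 1.14 of it, against 0.941 to 1.03 in the other libraries. Marker genes of body wall muscle, pharynx, intestine, hypodermis, neurons and germline were above 0 in every group. Summed sperm markers lay at 1550 to 4030 FPKM in FA, 2810 to 3150 FPKM in HFD and 5410 to 7190 FPKM in OP libraries. Summed body wall muscle markers lay at 4840 to 6310 FPKM in FA, 4760 to 6400 FPKM in HFD and 3920 to 5190 FPKM in OP libraries. Summed oocyte and eggshell markers lay at 158 to 321 FPKM in FA, 266 to 365 FPKM in HFD and 663 to 928 FPKM in OP libraries. For pharynx muscle the sums were 473 to 703 FPKM in FA, 484 to 637 FPKM in HFD and 352 to 456 FPKM in OP. For hypodermis they were 1210 to 2020, 1810 to 1960 and 2390 to 2520 FPKM. The median log2 fold change of the 5 hypodermis genes was nevertheless 0.16 in HFD against OP. The sums of intestine, neuron and germline markers overlapped between all groups. Their part in the differences below was not tested.

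ctc-2 and ctc-1, core subunits of complex IV, had the highest mean levels of the mitochondrial mRNAs. ctc-1 (MtDNA 7827 to 9428), which encodes the catalytic subunit that reduces oxygen, had 2423, 3680 and 2026 FPKM in FA, 2710, 3032 and 2884 FPKM in HFD, and 2153, 2081 and 2372 FPKM in OP libraries. ctc-2 (MtDNA 9649 to 10348), which accepts electrons from cytochrome c, had 2275, 3965 and 2034 FPKM in FA, 2793, 3603 and 2962 FPKM in HFD, and 2560, 2241 and 2884 FPKM in OP libraries. ctc-3 (MtDNA 5678 to 6449), the remaining core subunit, had 2190, 2862 and 1834 FPKM in FA, 2481, 3159 and 2123 FPKM in HFD, and 1725, 1713 and 1779 FPKM in OP libraries. All HFD libraries lay above all OP libraries for ctc-1 and ctc-3, and all FA libraries lay above all OP libraries for ctc-3 alone of these genes. For ctc-2 the groups overlapped in every pair. FA replicate 2 was the highest FA library for all of them and FA replicate 3 the lowest.

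The mitochondrial subunits of complexes V and III were nearly as abundant. atp-6 (MtDNA 2634 to 3235), subunit a of the proton channel of the ATP synthase, had 1999, 3195 and 1751 FPKM in FA, 2402, 3128 and 2414 FPKM in HFD, and 2178, 1928 and 2512 FPKM in OP libraries. ctb-1 (MtDNA 4504 to 5621), cytochrome b, which holds the ubiquinone sites of complex III, had 1426, 2175 and 1240 FPKM in FA, 1753, 2126 and 1816 FPKM in HFD, and 1589, 1488 and 1813 FPKM in OP libraries. For both genes FA replicate 2 was the highest and FA replicate 3 the lowest of all libraries, and the groups overlapped.

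The 7 MtDNA subunits of complex I, all of the membrane arm that pumps protons, ran lower. In every library each of them lay below ctc-1, ctc-2, ctc-3, atp-6 and ctb-1, and the lowest of those 5 stood 2.21 to 2.67 times above the highest complex I mRNA of the same library. nduo-1 (MtDNA 1763 to 2635) was the highest of the 7 in every library, with 585, 884 and 505 FPKM in FA, 656, 814 and 810 FPKM in HFD, and 651, 576 and 804 FPKM in OP libraries. Below it nduo-3, nduo-4 and nduo-5 changed places between libraries, and their means over the 9 libraries were 474 FPKM for nduo-3, 469 FPKM for nduo-4 and 485 FPKM for nduo-5.

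nduo-5 (MtDNA 11691 to 13272) had 387, 628 and 320 FPKM in FA, 442.5, 510 and 597 FPKM in HFD, and 496, 401 and 582 FPKM in OP libraries. nduo-3 (MtDNA 11356 to 11691) had 494, 552 and 414 FPKM in FA, 554, 624 and 393 FPKM in HFD, and 477, 278 and 477 FPKM in OP libraries. nduo-4 (MtDNA 6506 to 7808) had 404.5, 553 and 316 FPKM in FA, 468, 454 and 578 FPKM in HFD, and 507, 359 and 583 FPKM in OP libraries. The 3 groups overlapped for each of these genes, and OP replicate 2 was the lowest OP library for each.

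The lowest MtDNA levels came in the same order in every library: nduo-2, then nduo-6, then ndfl-4. nduo-2 (MtDNA 3389 to 4269) had 114, 192 and 125.5 FPKM in FA, 196.5, 226 and 157 FPKM in HFD, and 202, 129 and 215 FPKM in OP libraries, which is 0.194 to 0.311 of the nduo-1 level in the same library. nduo-6 (MtDNA 113 to 549) had 60.3, 54.4 and 33.1 FPKM in FA, 54.8, 57.3 and 66.3 FPKM in HFD, and 48.8, 40.6 and 59 FPKM in OP libraries. ndfl-4 (MtDNA 549 to 783), the ND4L subunit, had 1.22, 1.2 and 1.66 FPKM in FA, 2.03, 2.8 and 0.817 FPKM in HFD, and 2.39, 1.05 and 1.73 FPKM in OP libraries. No pair of groups was separate for any of these genes. ndfl-4 rested on at most 13 reads per library, so counting error alone is large there, and the ctc-2 level was 1070 to 3620 times its level in the same library. Whether so short a gene was sampled like the longer ones was not tested.

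**Figure D1:**
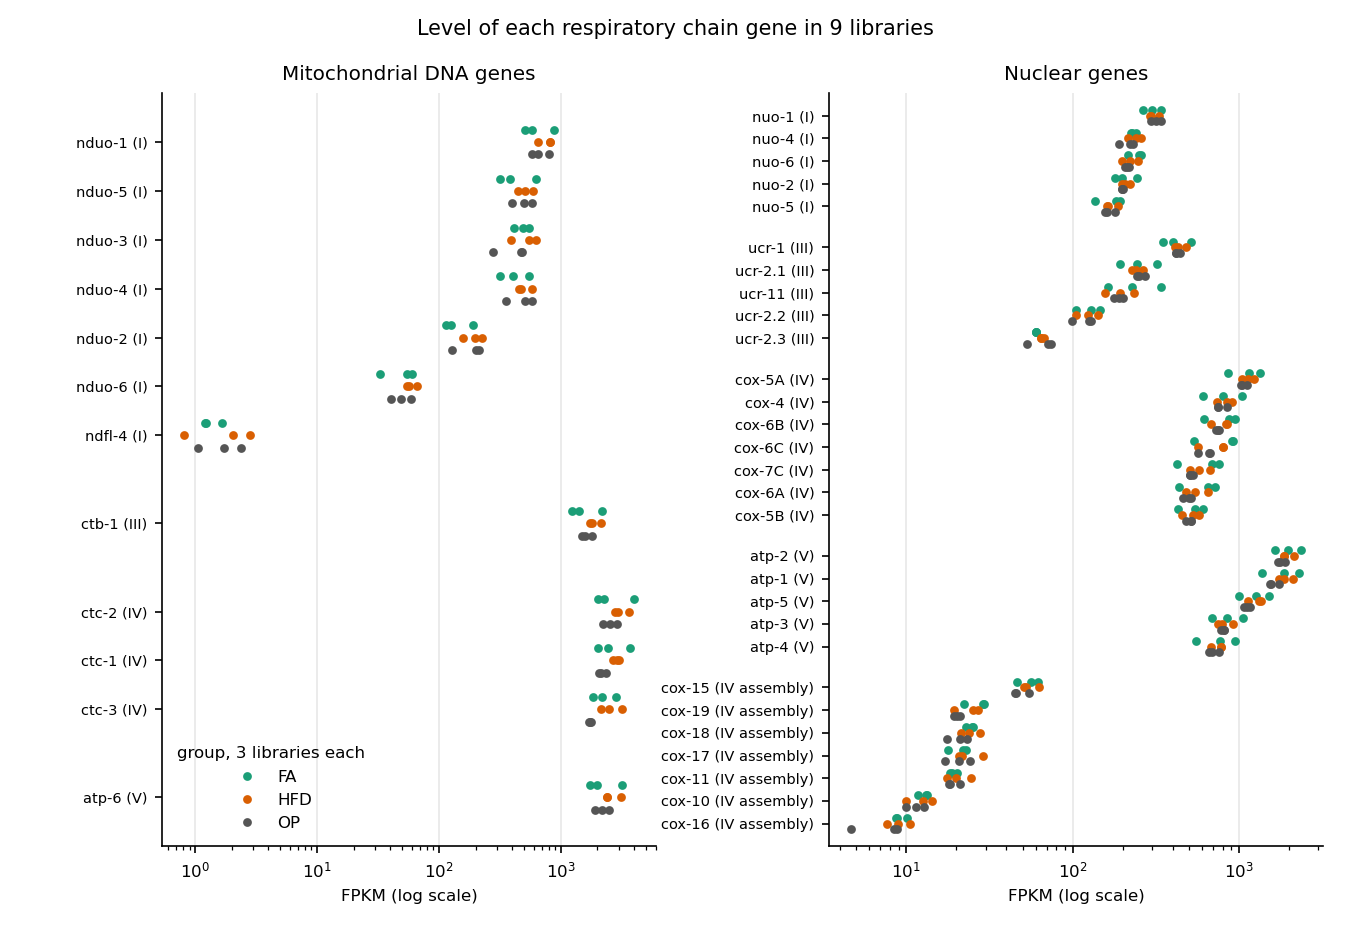
FPKM (log axis) of the 12 MtDNA genes (left) and the 29 tested nuclear genes (right) in the FA, HFD and OP libraries, 1 point per library, genes ordered by complex (in brackets) and by mean level. The complex I genes on MtDNA spread over mean levels of 1.66 to 698 FPKM, while the nuclear complex I genes shown stay between 169 and 308 FPKM.

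Among the tested nuclear members, levels went with the complex. Subunits outside the members did not keep to these ranges. Of the further ATP synthase genes described below, asb-1 averaged 149 FPKM and Y82E9BR.3 4250 FPKM in OP libraries. Of the further complex I genes, nduf-2.2 averaged 45.2 FPKM and C16A3.5 470 FPKM there. The 5 ATP synthase members had means over the 9 libraries of 736 to 1910 FPKM. They were led by atp-2 and atp-1, which encode the catalytic beta and the alpha subunit of the F1 head. atp-1 stood at 0.842 to 0.994 of the atp-2 level in every library. The 7 complex IV subunits had means of 516 to 1110 FPKM, the 5 complex III subunits 64.0 to 429 FPKM, and the 5 tested complex I subunits 169 to 308 FPKM. The 7 tested assembly factors of complex IV lay at 8.52 to 53 FPKM, below every nuclear subunit tested among the members.

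Nuclear and mitochondrial subunits of the same complex were not at the same FPKM, and whether their mRNAs were captured alike was not tested. In complex IV the median of the gene means was 2600 FPKM for the MtDNA subunits and 715 FPKM for the nuclear ones. ctc-1 exceeded cox-4, a nuclear subunit that binds to it, 2.45- to 3.89-fold in each library. In complex I the medians were 469 FPKM for the MtDNA genes and 226 FPKM for the tested nuclear members. However, nduo-2, nduo-6 and ndfl-4 on MtDNA had means below 226 FPKM.

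In complex I, nuo-4 (chromosome III, 7156026 to 7158809), an accessory subunit, had 227, 239.5 and 223 FPKM in FA, 259, 239 and 214 FPKM in HFD, and 232, 222 and 190 FPKM in OP libraries. nuo-6 (chromosome I, 7068116 to 7069186), a further accessory subunit known from a long-lived mutant, had 259, 252 and 215 FPKM in FA, 249, 223 and 198 FPKM in HFD, and 218, 205 and 213 FPKM in OP libraries. The groups overlapped for both genes. The remaining tested complex I members were nuo-1 and nuo-5, of the arm that oxidises NADH, and nuo-2, a core subunit of the same arm. Their means were 308 FPKM for nuo-1, 169 FPKM for nuo-5 and 205 FPKM for nuo-2.

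In complex III, ucr-1 encodes core protein 1, and ucr-2.1, ucr-2.2 and ucr-2.3 are 3 copies of the gene for core protein 2. The copies differed in level in every library: ucr-2.1 exceeded ucr-2.2 by 1.83- to 2.76-fold and ucr-2.3 by 3.21- to 5.32-fold. ucr-2.2 (chromosome X, 15173904 to 15178145) had 129, 146 and 104 FPKM in FA, 143, 124 and 105 FPKM in HFD, and 125, 129 and 98.8 FPKM in OP libraries. ucr-2.3 (chromosome III, 879860 to 881458) had 60.4, 60.6 and 60.4 FPKM in FA, 64.95, 64.4 and 67.0 FPKM in HFD, and 53.1, 70.95 and 74.4 FPKM in OP libraries. ucr-2.2 overlapped between all groups, while every FA library lay below every HFD library for ucr-2.3. Related copies may share reads, and the sources used here do not say how such reads were counted.

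ucr-11 (chromosome I, 6552834 to 6553379), a small complex III subunit, had 342, 228 and 163 FPKM in FA, 234, 192 and 157 FPKM in HFD, and 201, 176 and 190 FPKM in OP libraries. It had one of the largest ranges of the nuclear genes, 2.18-fold between the highest and the lowest library, and FA replicate 1 was the library that stood above the rest. The groups overlapped.

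In complex IV, cox-6A (chromosome III, 5081724 to 5082995), a nuclear subunit, had 649, 717 and 439 FPKM in FA, 656, 545 and 480 FPKM in HFD, and 513, 463 and 499 FPKM in OP libraries. cox-4, cox-5A, cox-5B, cox-6B, cox-6C and cox-7C are further nuclear subunits around the mitochondrial core, and each of them had its lowest level in FA replicate 3. Their highest level was in FA replicate 2, except for cox-6C, which was highest in FA replicate 1.

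In complex V, atp-1 (chromosome I, 12652277 to 12654655) had 1858, 2302 and 1377 FPKM in FA, 2116, 1858 and 1732 FPKM in HFD, and 1546, 1730 and 1561 FPKM in OP libraries. atp-3 (chromosome I, 5428533 to 5429908), subunit O of the stalk that holds the F1 head, had 851, 1053 and 688 FPKM in FA, 922, 748 and 790 FPKM in HFD, and 775, 807 and 817 FPKM in OP libraries. Every HFD library lay just above every OP library for atp-1, by 1732 against 1730 FPKM at the nearest. For atp-3 all groups overlapped.

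The assembly factors are known mostly from yeast and human cells, where COX10 and COX15 make heme A, COX11, COX17 and COX19 deal with copper, and COX18 inserts the second core subunit into the membrane. cox-18 (chromosome IV, 1097453 to 1102980) had 25.2, 24.8 and 22.9 FPKM in FA, 27.9, 23.9 and 21.3 FPKM in HFD, and 23.15, 21.1 and 17.7 FPKM in OP libraries. cox-19 (chromosome I, 10381082 to 10382025) had 29.35, 28.9 and 22.3 FPKM in FA, 27.1, 25.1 and 19.3 FPKM in HFD, and 20.3, 19.3 and 21.1 FPKM in OP libraries. All FA libraries lay above all OP libraries for cox-19, and HFD overlapped both groups. cox-18 overlapped between all groups.

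The lowest nuclear members were nuo-3, cox-14 and cox-16, and they were also the members with at least 50% of their exon bases in exons of another annotated gene on the same strand. nuo-3 (WBGene00013308, chromosome IV, 14796419 to 14797544), an accessory subunit of complex I, had 0 to 4 reads per library and a mean of 0.0848 FPKM. cox-14 (WBGene00011875, chromosome III, 10218942 to 10222825), whose human counterpart assists in making the first core subunit of complex IV, had at most 2 reads per library and a mean of 0.0308 FPKM. A library with no read would still allow up to 3 reads. Both genes failed the filter and no fold change is given for them.

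In the Ensembl annotation of WBcel235, 783 of 1078 exon bases of nuo-3 (72.6%) lay on the same strand in exons of an overlapping gene, and 519 of 686 exon bases of cox-14 (75.7%) in exons of Y70G10A.4. For cox-16 (chromosome V, 5535057 to 5536243), with a mean of 8.52 FPKM, 369 of 599 exon bases (61.6%) lay in exons of C24G6.8, a gene at 58 FPKM. The partners of nuo-3 and cox-14 were themselves at 0 and 0.0169 FPKM. No other nuclear member shared more than 3.0% of its exon bases on the same strand.

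Low levels went with shared exons over the whole table too. Of the 179 protein-coding genes with at least 50% of their exon bases shared on the same strand, 160 (89.4%) had a mean under 1 FPKM. Among the 19809 protein-coding genes under that limit, 6235 (31.5%) did. The counting of reads in shared exons is not described in the sources used here and its part in these low values was not tested, so the values of nuo-3, cox-14 and cox-16 are uncertain.

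**Figure D2:**
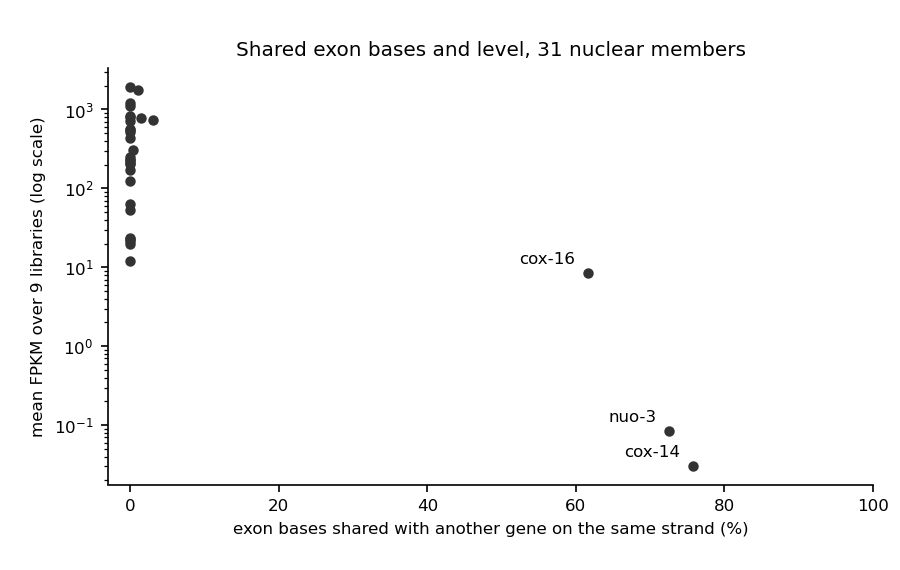
Mean FPKM over 9 libraries (log axis) of the 31 nuclear genes against the percent of their exon bases that another annotated gene covers on the same strand. cox-16, nuo-3 and cox-14 are the points to the right, at 61.6%, 72.6% and 75.7%, and the lowest in level.

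The first comparison, HFD against OP, asks how the high fat condition went with respiratory chain mRNAs. With limma, 0 of the 41 tested members had an adjusted p under 0.05, where 1083 of the 14730 genes tested did (7.35%; 2.74% higher and 4.62% lower), and limma's voom on the recovered reads called 0 of them too. At an unadjusted p under 0.05 there was 1 member, ctc-3, of 41, against 21.9% of all genes. In whole animals, fewer cells of a type and less RNA per cell cannot be told apart, here or in the comparisons that follow.

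All 12 MtDNA genes had a positive log2 fold change in HFD against OP, with a median of 0.24 and a range of 0.05 to 0.55, while 51.9% of all genes tested were positive with a median of 0.01. The 12 genes lie on the same strand of the mitochondrial chromosome and tended to move together between libraries. Their signs are therefore not independent. ctc-3 stood farthest apart, with a mean of 2587 ± 526 FPKM in HFD and 1739 ± 35.2 FPKM in OP (SD, n = 3 libraries each). Its log2 fold change was 0.55 (SE 0.23, 95% interval 0.045 to 1.06), with an adjusted p of 0.189 in limma. ctc-1 averaged 2875 ± 161 FPKM in HFD and 2202 ± 152 FPKM in OP (log2 fold change 0.39, SE 0.24, limma adjusted p = 0.405). nduo-3 followed with a log2 fold change of 0.37 (SE 0.25, limma adjusted p = 0.448), and the smallest were nduo-5, nduo-4 and ndfl-4 with 0.07, 0.07 and 0.05.

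The common sign rested in part on single libraries. Without OP replicate 2, 8 of the 12 MtDNA genes had a positive log2 fold change and the median was 0.12. Leaving out any other HFD or OP library left 10 to 12 of them positive. On the log2 scale, the MtDNA genes' median deviations from their own means were 0.07, 0.36 and 0.11 in HFD libraries. In OP libraries they were -0.08, -0.31 and 0.10. The 1165 tested genes with a mean of at least 100 FPKM had 0.15, 0.03 and -0.07 in HFD, and -0.06, -0.025 and -0.11 in OP. The median half-width of the 95% intervals was 0.54 on the log2 scale for the MtDNA genes and 0.38 for the nuclear genes. Differences inside these bounds could not be told from 0 with 3 libraries a group. The bounds take no account of the number of genes tested, so larger differences could also miss the threshold, as ctc-3 did.

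Of the 29 nuclear genes tested, 26 had a positive log2 fold change in HFD against OP, with a median of 0.09. Without HFD replicate 1, 18 were positive with a median of 0.03, and the median was 0.17 without HFD replicate 3 and 0.145 without OP replicate 2. With libraries scaled to their read totals 21 were positive and the median was 0.05, beside a median of all genes of -0.03. By complex, 4 of 5 were positive in complex I (median 0.065), 3 of 5 in complex III (0.02), 7 of 7 in complex IV (0.09), 7 of 7 among the assembly factors (0.19) and 5 of 5 in complex V (0.13). Scaled to read totals the counts were 3 of 5 (0.02), 1 of 5 (-0.02), 6 of 7 (0.045), 7 of 7 (0.15) and 4 of 5 (0.08) in that order of complexes, so the median of complex III changed sign. Abundant genes in general moved much alike. On the log2 scale, the nuclear genes' median deviations from their own means over 9 libraries were 0.165, 0.02 and -0.08 in HFD libraries. In OP libraries they were -0.08, -0.03 and -0.10. For the 1165 tested genes with a mean of at least 100 FPKM they were 0.15, 0.03 and -0.07 in HFD. The OP values of those genes were -0.06, -0.025 and -0.11. atp-1 averaged 1902 ± 196 FPKM in HFD and 1612 ± 103 FPKM in OP (SD, n = 3 each), a log2 fold change of 0.235 (SE 0.22).

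The other nuclear genes with the lowest p of their complex were cox-18 (log2 fold change 0.23, SE 0.14), cox-6A (0.18, SE 0.20), nuo-4 (0.145, SE 0.13) and ucr-2.2 (0.075, SE 0.17). Their limma adjusted p values lay between 0.4 and 0.851, and that of atp-1 was 0.596. The members whose HFD and OP libraries did not overlap were ctc-3, ctc-1 and atp-1, 3 of 41, against 29.3% of all genes tested. Without HFD replicate 3 there were 18 of 41, against 44% of all genes tested then.

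**Figure D3:**
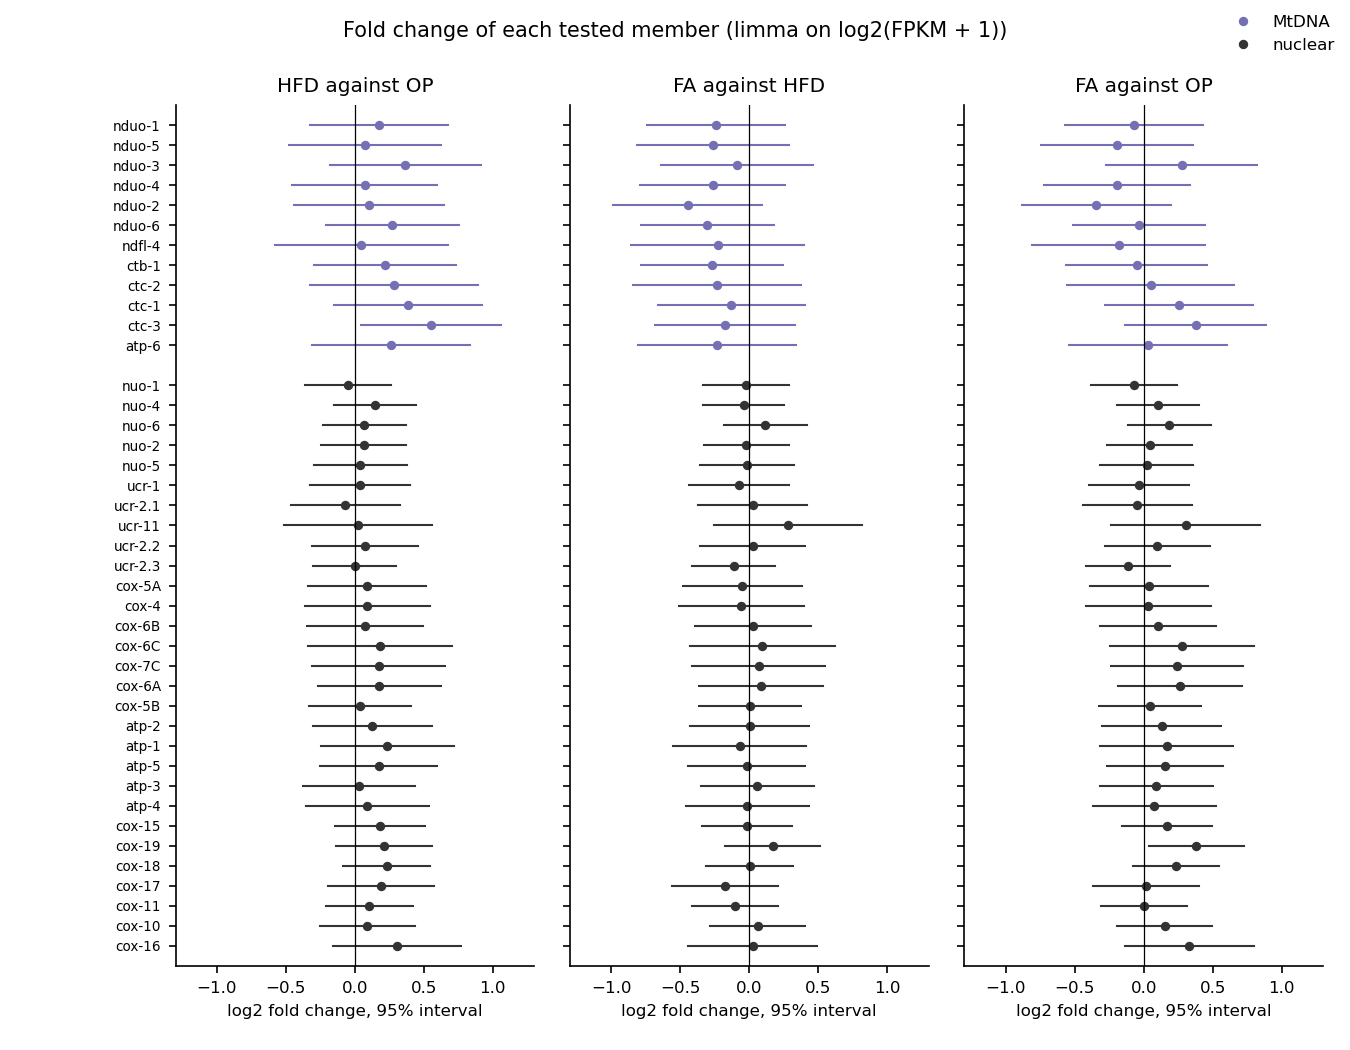
Log2 fold change with its 95% interval for the 41 tested genes in the contrasts of HFD with OP, FA with HFD, and FA with OP, MtDNA genes in violet above and nuclear genes in grey below. The MtDNA points lie to the right of 0 in the first panel and to the left in the second, and the intervals cross 0 except those of ctc-3 in the first and cox-19 in the third panel.

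Taken as a share of all reads on genes, the MtDNA genes held 1.18%, 1.60% and 1.16% in FA, 1.31%, 1.69% and 1.48% in HFD, and 1.24%, 1.09% and 1.395% in OP libraries. The nuclear genes held 1.65%, 1.74% and 1.48% in FA, 1.69%, 1.63% and 1.54% in HFD, and 1.51%, 1.58% and 1.501% in OP libraries. These shares do not depend on the scaling of the FPKM. The mean MtDNA share was 1.315% ± 0.249 in FA, 1.49% ± 0.191 in HFD and 1.24% ± 0.152 in OP (SD, n = 3 each), and the groups overlapped.

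The summed FPKM of the MtDNA genes over that of the nuclear genes was 0.831, 1.09 and 0.947 in FA, 0.931, 1.25 and 1.15 in HFD, and 0.977, 0.825 and 1.11 in OP libraries. Within complex IV the same ratio was 1.22, 1.67 and 1.51 in FA, 1.41, 1.85 and 1.78 in HFD, and 1.36, 1.23 and 1.54 in OP libraries. Both ratios overlapped between all groups. Group means of the first ratio were 0.956 in FA, 1.11 in HFD and 0.971 in OP, with SDs of 0.13, 0.163 and 0.143. For both ratios, the libraries of each group spread more widely than the 3 group means did. The balance of the genomes is given without a test since it sums chosen genes.

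**Figure D4:**
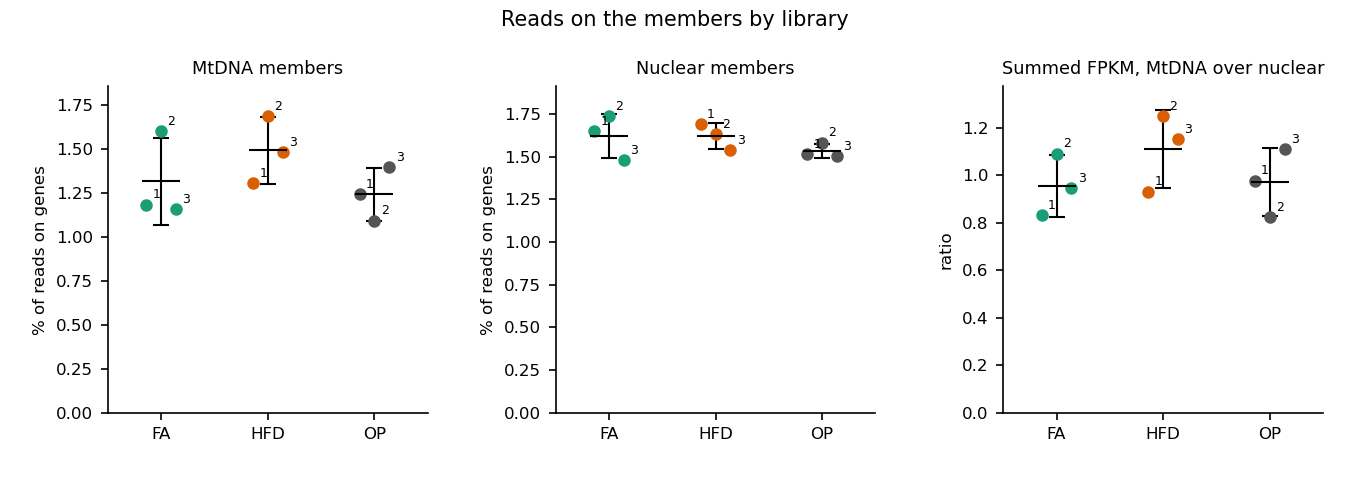
Percent of reads on genes held by the MtDNA genes (left) and by the nuclear genes (middle), and the ratio of their summed FPKM (right), in the 9 libraries. Points are libraries with their replicate number, lines and bars the mean and SD of 3 libraries. The HFD libraries reach up to 1.69% for MtDNA genes, and the 3 groups overlap in each panel.

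The ratio of ctc-3 to ctb-1, both on MtDNA, was chosen after its values were seen. It was 1.535, 1.32 and 1.48 in FA, 1.42, 1.49 and 1.17 in HFD, and 1.085, 1.15 and 0.981 in OP libraries. Every FA and HFD library lay above every OP library, by 1.17 against 1.15 at the nearest. ctc-3 alone already separated both groups from OP, so the separation of the ratio adds no further evidence. How many other pairs of MtDNA genes would separate was not counted. A ratio within a library shows unequal levels of the genes and not which of them differed.

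The second comparison, FA against HFD, asks how farrerol went with respiratory chain mRNAs under the high fat condition. None of the 41 genes passed the threshold in limma or in voom, and 0 had an unadjusted p under 0.05. Over all 14730 genes 1 passed (0.00679%) and 2.5% had an unadjusted p under 0.05, so few differences were detected anywhere in this comparison.

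All 12 MtDNA genes had a negative log2 fold change in FA against HFD, with a median of -0.24 and a range of -0.45 to -0.09, while 48.6% of all genes were positive with a median of -0.005. This comparison shares the HFD libraries with HFD against OP, so a high HFD value moves both in opposite directions and the signs are not independent. Nor are the 12 genes independent of one another, since they tended to move together between libraries. nduo-2 had the lowest p, with 144 ± 42.2 FPKM in FA and 193 ± 34.5 FPKM in HFD (SD, n = 3 each). Its log2 fold change was -0.45 (SE 0.245, 95% interval -0.99 to 0.10, limma adjusted p = 1). nduo-6 and ctb-1 came next with -0.31 (SE 0.22) and -0.27 (SE 0.23).

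The size of the MtDNA difference depended on FA replicate 2. Without it the median of the 12 MtDNA genes was -0.475, and FA and HFD did not overlap for 8 of them. Of all genes tested then, 14.4% did not overlap, against 5.1% with all libraries. In that limma fit 6 of the 12 had an unadjusted p under 0.05, though the smallest adjusted p was 0.999. The share of all genes under that unadjusted p was not counted for this fit. The count of 6 therefore has no yardstick, and nothing is drawn from it. Without FA replicate 3 the median was -0.06, and 10 of the 12 were negative. With all libraries, none of the MtDNA genes was separate between FA and HFD.

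The 29 nuclear genes were divided in FA against HFD, 15 with a positive and 14 with a negative log2 fold change and a median of 0.003. This division rested on single libraries: 5 were positive (median -0.105) without FA replicate 2 and 7 (-0.08) without HFD replicate 3, but 25 (0.13) without FA replicate 3 and 26 (0.07) without HFD replicate 1. The lowest p of each complex belonged to ucr-11 (log2 fold change 0.28, SE 0.24), cox-19 (0.17, SE 0.16), nuo-6 (0.12, SE 0.14), cox-6A (0.08, SE 0.20) and atp-3 (0.06, SE 0.185), each with a limma adjusted p of 1. ucr-2.3 was the member whose libraries did not overlap, 1 of 41, where 5.1% of all genes did not overlap and 3.27% were separate with FA lower. It averaged 60.5 ± 0.0793 FPKM in FA and 65.4 ± 1.38 FPKM in HFD (SD, n = 3 each), a log2 fold change of -0.11 (SE 0.14). With libraries scaled to their read totals its FA and HFD libraries overlapped.

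The third comparison, FA against OP, sets the treated high fat animals beside the controls and shares its libraries with both others. None of the 41 members passed the threshold in limma or in voom, where 14.6% of all genes did (4.61% higher and 9.96% lower). At an unadjusted p under 0.05 there was 1 member, cox-19 (0 in voom), against 27.7% of all genes. cox-19 averaged 26.9 ± 3.97 FPKM in FA and 20.2 ± 0.864 FPKM in OP (SD, n = 3 each). Its log2 fold change was 0.38 (SE 0.16, 95% interval 0.04 to 0.73), with an adjusted p of 0.138 in limma.

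The MtDNA genes were divided in FA against OP, 5 with a positive and 7 with a negative log2 fold change and a median of -0.04, beside 52.5% positive and a median of 0.02 over all genes. The extremes were ctc-3, with 2295 ± 522 FPKM in FA and 1739 ± 35.2 FPKM in OP (log2 fold change 0.38, SE 0.23, limma adjusted p = 0.33), and nduo-2, with 144 ± 42.2 FPKM in FA and 182 ± 46.1 FPKM in OP (-0.34, SE 0.245, limma adjusted p = 0.412). Of the complex IV core, ctc-1 had a log2 fold change of 0.255 and ctc-2 had 0.05. Leaving out a single library moved the median of the 12 between -0.24, without FA replicate 2, and 0.16, without FA replicate 3.

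Among the 29 nuclear genes 25 had a positive log2 fold change in FA against OP, with a median of 0.10, and 22 with libraries scaled to their read totals. Without FA replicate 2, 14 were positive with a median of -0.01, and without FA replicate 3, 28 were positive with a median of 0.24. All 7 assembly factors tested were positive (median 0.17), and so were the 7 complex IV and the 5 complex V subunits (medians 0.105 and 0.13). Scaled to read totals, 5 of the 7 assembly factors and all the complex IV and V subunits stayed positive. Median deviations of the nuclear genes from their own means were 0.08, 0.26 and -0.26 in FA libraries. For the 1165 genes with a mean of at least 100 FPKM they were 0.07, 0.24 and -0.24, so abundant genes in general moved much alike here too. The members whose FA and OP libraries did not overlap were ctc-3 and cox-19, 2 of 41, against 31% of all genes. Without FA replicate 3 there were 21 of 41, against 44.4% of all genes tested then.

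With the deposited scaling, FA replicates 2 and 3 stood far apart. FA replicate 2 was the highest of the 9 libraries for 6 of 12 MtDNA and 17 of 29 nuclear genes, and FA replicate 3 was the lowest for 8 and 17 of them. FA replicate 2 exceeded FA replicate 3 for 11 of the 12 MtDNA genes, with a median difference of 0.81 on the log2 scale (1.75-fold), and for 28 of the 29 nuclear genes, with a median of 0.48 (1.4-fold). Over all genes tested the share was 49.0%.

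The size of that gap depended on the scaling. With libraries scaled to their read totals, FA replicate 2 still exceeded FA replicate 3 for 11 of the 12 MtDNA genes, with a median difference of 0.44 on the log2 scale (1.35-fold), but for the nuclear genes the count was 20 of 29 and the median 0.12 (1.08-fold). Over all genes tested the share was 22.6% on that scale, and the median difference was -0.32 instead of -0.009. The downward shift was thus not particular to the members. On that scale HFD replicate 2 was the highest library for 7 MtDNA genes and OP replicate 2 the lowest for 6 of them. The MtDNA read share was highest in HFD replicate 2 (1.69%) and lowest in OP replicate 2 (1.09%).

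The gap was also present in other abundant genes. Among the 1165 tested genes with a mean of at least 100 FPKM, 91.7% were higher in FA replicate 2 than in FA replicate 3, with a median difference of 0.47 on the log2 scale (1.38-fold), and 62.0% with a median of 0.10 when scaled to read totals. With the deposited scaling, the median SD within a group was 0.42 in FA, 0.20 in HFD and 0.25 in OP for the MtDNA genes, on the log2 scale. For the nuclear genes it was 0.26 in FA, 0.16 in HFD and 0.09 in OP, and for all genes 0.23 in FA, 0.18 in HFD and 0.175 in OP. For the genes with a mean of at least 100 FPKM it was 0.31 in FA, 0.19 in HFD and 0.13 in OP.

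With the deposited scaling, some libraries stood apart for the genes of one genome more than for those of the other. In OP replicate 2 all 12 MtDNA genes lay below their own mean over the 9 libraries, with a median deviation of -0.31 on the log2 scale, while the nuclear genes had a median of -0.03. In HFD replicate 1 all 29 nuclear genes lay above their mean, with a median of 0.165, and the MtDNA genes had a median of 0.07. The 1165 genes with a mean of at least 100 FPKM had a median of 0.15 there, with 969 above their mean. The height of HFD replicate 1 was thus not particular to the nuclear members. In HFD replicate 2 the medians were 0.36 for the MtDNA genes and 0.02 for the nuclear genes. These are descriptions of single libraries, and no difference between the gene sets was tested.

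**Figure D5:**
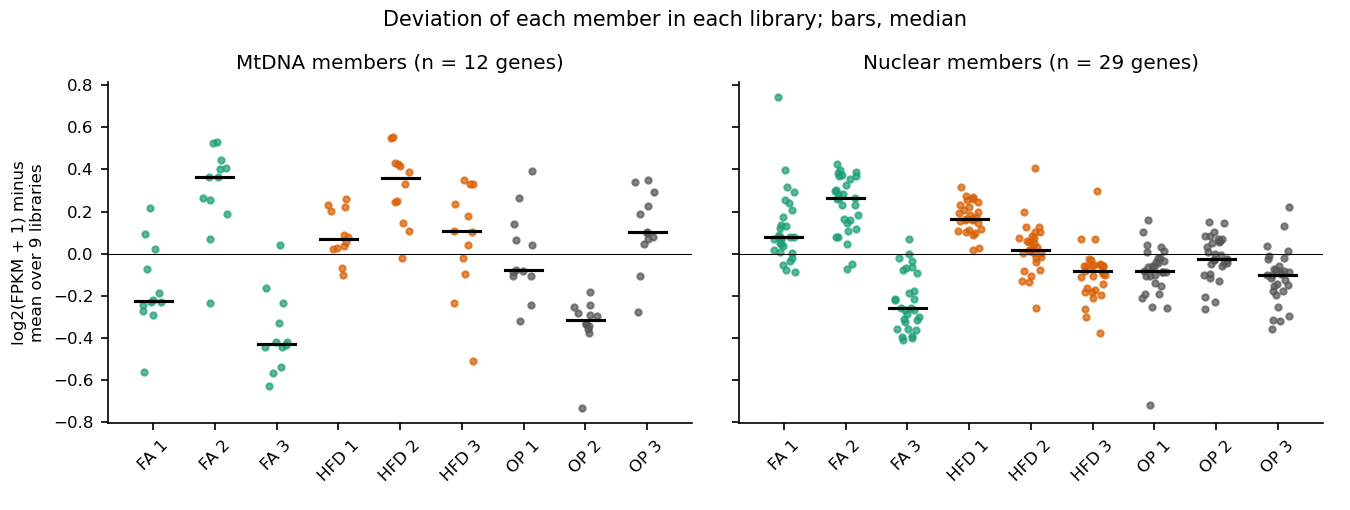
Deviation of each gene from its own mean over 9 libraries, on the scale log2(FPKM + 1), by library, for the 12 MtDNA genes (left) and the 29 tested nuclear genes (right). Points are genes and bars medians. With the deposited scaling FA replicates 2 and 3 stand apart in both panels, and the median of OP replicate 2 is -0.31 for the MtDNA genes and -0.03 for the nuclear genes.

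Beyond the 43 genes, 9 lists of 148 further genes of the pathway and its supply were read from the same fit, 147 of them tested. None passed the threshold in HFD against OP, where 7.35% of all genes did, and 5 had an unadjusted p under 0.05, against 21.9% of all genes. None passed in FA against HFD and none had an unadjusted p under 0.05 there, against 0.00679% and 2.5% of all genes. For FA against OP, 0 were higher and 2 lower, against 4.61% and 9.96% of all genes, and 7 had an unadjusted p under 0.05, against 27.7%. The 2 were ant-1.3 and ant-1.4, carriers of the family that exchanges ATP for ADP across the inner membrane.

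ant-1.3 had 73.4, 48.0 and 45.4 FPKM in FA, 66.5, 69 and 65.1 FPKM in HFD, and 78.3, 97.4 and 103 FPKM in OP libraries. Every FA library lay below every OP library, with a log2 fold change of -0.755 (SE 0.18, limma adjusted p = 0.0203). ant-1.4 had 67.1, 48.2 and 40.4 FPKM in FA, 61.5, 58 and 61.9 FPKM in HFD, and 67.1, 86.1 and 79.5 FPKM in OP libraries. It fell by 0.59 on the log2 scale in FA against OP (SE 0.18, limma adjusted p = 0.0476), although FA replicate 1 reached the level of OP replicate 1 so that the groups met.

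Both calls depended on single libraries, and the adjusted p was 0.0847 for ant-1.3 and 0.181 for ant-1.4 without OP replicate 2. Leaving out 1 library ended the call for ant-1.3 in 4 of 9 cases and for ant-1.4 in 7 of 9. The abundant carrier ant-1.1 had 4440, 5860 and 3600 FPKM in FA and 3340, 3990 and 4500 FPKM in OP libraries and did not pass. The 34 sperm markers tested moved with the same contrast, 30 of them called lower in FA against OP with a median log2 fold change of -1.47. The 9 oocyte and eggshell markers did so too, with 9 called lower and a median of -1.60. Their part in the carriers' difference was not tested. Related copies may share reads here as well.

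Further nuclear subunits of the complexes had small fold changes. Of 25 further complex I genes, 23 had a positive log2 fold change in HFD against OP (median 0.05), 16 in the contrast of FA with HFD (0.02) and 22 in that of FA with OP (0.08), and Y54F10AM.5 and C33A12.1 had the lowest p in HFD against OP (0.14, SE 0.16 and 0.12, SE 0.15), not passing. Scaled to read totals 14 of the 25 were positive in HFD against OP (median 0.005). The median of all genes in that contrast was -0.025 on that scale, against 0.01 with the deposited scaling. The 5 complex II genes, which carry electrons from succinate, had medians of 0.11, -0.03 and 0.09 in the same order of comparisons, and sdhd-1 and sdhb-1 did not pass. The 12 further ATP synthase genes had medians of 0.03, 0.01 and 0.06, the first of which was -0.01 when scaled to read totals. Among them Y82E9BR.3 was the most distant in HFD against OP, with 6110, 5260 and 4930 FPKM in HFD and 4030, 4270 and 4450 FPKM in OP libraries (0.35, SE 0.26, limma adjusted p = 0.493), and mai-1, an inhibitor of the ATP synthase, did not pass.

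Cytochrome c, the carrier between complexes III and IV, has copies in cyc-2.1 and cyc-2.2. cyc-2.2 had 52.8, 25.7 and 27.5 FPKM in FA, 36.5, 43.9 and 39.1 FPKM in HFD, and 53.7, 63.4 and 56.0 FPKM in OP libraries. Each FA and HFD library lay below each OP library. The log2 fold change was -0.52 in HFD against OP (SE 0.23, limma adjusted p = 0.219) and -0.76 in FA against OP (SE 0.23, limma adjusted p = 0.0507), so neither passed. The 34 sperm markers tested were lower in the same contrasts. Of them, 16 were called lower in HFD against OP (median -1.13) and 30 in FA against OP (median -1.47). Their part in the difference of cyc-2.2 was not tested. cyc-1, cytochrome c1 of complex III, had the other low p of that list, with -0.12 in HFD against OP (SE 0.16).

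Genes that supply the chain were read in the same way. Of 71 genes of the mitochondrial ribosome, which translates the MtDNA mRNAs, 65 had a positive log2 fold change in HFD against OP (median 0.17), 42 in the contrast of FA with HFD (0.01) and 68 in that of FA with OP (0.17), and 0 passed in any. Scaled to read totals, 58 of the 71 were positive in HFD against OP (median 0.13). mrps-18B had 80.5, 81.7 and 74.1 FPKM in HFD and 65.2, 62.1 and 60.4 FPKM in OP libraries, with no overlap (0.33, SE 0.13, limma adjusted p = 0.162), and mrps-21 had 0.39 (SE 0.175). Of the 71 genes, 9 had no overlap there, against 29.3% of all genes tested. Of the 8 genes of ubiquinone synthesis, clk-1, which hydroxylates a precursor of ubiquinone, had 0.28 in HFD against OP (SE 0.125, limma adjusted p = 0.221) and coq-6 had -0.18 (SE 0.11).

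Of 6 genes that copy and transcribe the mitochondrial DNA, the lowest p belonged to hmg-5, which binds that DNA, with 0.25 in HFD against OP (SE 0.14), and to mtss-1, its single-strand binding protein, with 0.345 (SE 0.20). Of 8 mitochondrial chaperones, proteases and their regulator, clpp-1, the matrix protease, had 0.20 (SE 0.12) and atfs-1, the transcription factor of the mitochondrial unfolded protein response, had 0.14 (SE 0.12). None of these genes passed the threshold.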

How the data were processed

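The authors deposited 1 table of FPKM values per gene, beside columns of names, coordinates, lengths and biotypes, per the file headers. A chloroform extraction of total RNA and an NEBNext Ultra II RNA kit were used, per the labels' protocols, with the build WBcel235 named in the submitters' processing notes. The aligner, counter and strand setting, not given in the sources used here, decide whether overlapping, antisense and near-identical genes share reads. The control columns carry the name OP50 and were assigned to the OP samples of the same number. Multiplied by gene length, 100% of the deposited FPKM values in each library were whole multiples of a single step (tolerance 0.01 of a read), which gave back the reads per gene. A gene of 1 kilobase with 3 reads has 0.130 to 0.179 FPKM. Another 52 rows, with no gene name and 0.0184% to 0.0293% of reads, were not tested.

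FPKM are not counts, so limma 3.58.1 (R 4.3.3) with a mean-variance trend was fitted to log2(FPKM + 1) of all 9 libraries and 14730 genes, as 3 group means with 6 residual degrees of freedom, two-sided. Adjusted p values in the text are Benjamini-Hochberg over all genes tested, called under 0.05, and fold changes on this scale understate those of low genes. Such p values reflect the spread among the libraries only, and that spread can be technical. Alternatives were other pseudocounts, filters, scalings, spreads, robust moderation, the replicate number as a block, voom on the recovered reads, and leaving out each library in turn.

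The members, the pathway and marker lists and the rule for named genes were chosen with earlier results of these data known. The rule gives values for every MtDNA gene, for each nuclear member that passed, and for the nuclear member of each complex with the lowest p in HFD against OP and in FA against HFD. Of each pathway list it names those that passed, or else the 2 with the lowest p in HFD against OP. Members outside it were named after their values were seen. Same-numbered libraries of different groups had correlations of their deviations from -0.227 to 0.299, so the numbers were not taken to pair them.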

Additional observations from a re-analysis of the deposited data

How the results depend on the processing

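The count of respiratory chain genes past the threshold was 0 of those tested in each comparison under every alternative run. Leaving out each library in turn, the median log2 fold change ranged over 0.124 to 0.331 for the MtDNA genes and 0.028 to 0.17 for the nuclear genes in HFD against OP, over -0.475 to -0.056 and -0.105 to 0.134 in FA against HFD, and over -0.237 to 0.16 and -0.009 to 0.244 in FA against OP. The MtDNA share does not depend on the scaling of the libraries. Over all genes, 472 were called in HFD against OP and 1424 in FA against OP with no filter on low values, against 1083 and 2146. In FA against HFD, where 1 gene was called, 0 were with a filter of 5 FPKM, with the 2 groups alone, with a pseudocount of 0.1, with voom and with the replicate number as a block. With the replicate block 837 genes were called in HFD against OP and 1868 in FA against OP, and the block changed no call of a member. The numbers are not taken to pair the libraries.

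Leaving out each library in turn gave 221 to 1486 genes called in HFD against OP, 0 to 2 in FA against HFD and 883 to 2550 in FA against OP. These fits kept a group of 2 libraries with the spread pooled over groups. Of the respiratory chain genes named in HFD against OP or in FA against HFD, those whose sign turned did so when a library was left out, and the cause was not tested. In FA against HFD the log2 fold change ranged over -0.094 to 0.212 for atp-3, -0.058 to 0.296 for cox-6A, -0.374 to 0.056 for ctc-1, -0.53 to 0.002 for ndfl-4 and -0.282 to 0.051 for nduo-3. In HFD against OP it ranged over -0.045 to 0.189 for ucr-2.2, -0.184 to 0.348 for ndfl-4, -0.124 to 0.244 for nduo-2, -0.129 to 0.221 for nduo-4 and -0.067 to 0.201 for nduo-5. Depth limits ndfl-4, nuo-3 and cox-14, which rest on at most 13, 4 and 2 reads per library.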

Other observations

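The mitochondrial ribosomal RNA genes are not protein-coding and were left out of the comparisons above. Together they held 0.0089% to 0.0191% of the reads in FA, 0.0091% to 0.0219% in HFD and 0.0147% to 0.0249% in OP libraries. WBGene00014472 (MtDNA 10403 to 11354) had 44.1, 135 and 49.5 FPKM in FA, 46.1, 40.2 and 139 FPKM in HFD, and 185, 109 and 133 FPKM in OP libraries. FA replicate 2 and HFD replicate 3 reached the OP range and the other FA and HFD libraries lay below it. Its log2 fold change was -1.11 in HFD against OP (SE 0.495, limma adjusted p = 0.223) and -1.05 in FA against OP (SE 0.495, limma adjusted p = 0.202). WBGene00014454 (MtDNA 898 to 1593) had 68.3, 126 and 58.5 FPKM in FA, 76.4, 76.8 and 117 FPKM in HFD, and 94.1, 61.7 and 91.0 FPKM in OP libraries, and the groups overlapped. The 22 transfer RNA genes of MtDNA held 6 to 20 reads per library in all. How ribosomal RNA was removed before sequencing is not given in the sources used here.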
